A study of Mus musculus with 6 samples.

Results

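The 48 genes described here encode subunits of the mitochondrial respiratory chain in the mouse lens. They were chosen by name, as 35 nuclear genes of complexes I to V and cytochrome c together with the 13 protein genes of the mitochondrial genome, and all 48 were found by symbol among the 27179 Entrez identifiers of the deposited table. RNA was sequenced from lenses of pups on postnatal day 1 (P1) on a B6/FVB background, in 3 libraries labelled Gclc KO (KO 1 to 3) and 3 labelled Gclc CON (CON 1 to 3). The product of Gclc is the catalytic part of glutamate-cysteine ligase, with which glutathione synthesis begins, and the comparison asked which transcripts differ when the gene is disrupted. The driver of the deletion, the altered part of the gene, the sex and the number of animals per library are not given in the sources used here. Whether each library stands for its own animals is not stated either, so p-values measure only the spread of these 6 libraries, which may be technical.

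Libraries held 20361430 (CON 2) to 61219009 (KO 3) reads in genes, and 16 crystallin genes, for the abundant soluble proteins of lens fibres, took 44.9% ± 3.82 of them in KO and 64.7% ± 4.6 in CON (SD, n = 3 each). Normalised reads are read counts recovered from the deposited values and divided by each library's size factor. Log2 differences are given as KO minus CON in the deposited variance-stabilised values, tested with limma over 11468 genes, and a gene is called at a Benjamini-Hochberg adjusted p under 0.05. For genes with few reads these values compress a difference, which is then smaller than the log2 ratio of the normalised reads. Gclc itself had 17.9, 72.1 and 58.1 normalised reads across KO 1 to 3 and 178, 283 and 173 across CON 1 to 3 (log2 difference -1.01, SE 0.28, adjusted p = 0.0387), with all KO libraries below all CON libraries. The mean of its normalised reads was 4.28-fold lower in KO, more than the compressed difference shows. Its adjusted p ran from 0.0135 to 0.132 over the alternatives, 11 of which lost the call. Intervals and spreads cover these libraries and reads, which carry no molecular identifiers.

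The respiratory chain passes electrons from NADH (complex I, NADH dehydrogenase) and succinate (complex II, succinate dehydrogenase) through complex III (cytochrome bc1) and the mobile carrier cytochrome c to complex IV (cytochrome c oxidase), which reduces oxygen. The proton gradient built on the way drives complex V, the ATP synthase. Most subunits are encoded in the nucleus and imported, the mitochondrial genome encodes a small core set of subunits in every complex but II, and the 2 sets are assembled together. In the lens, mitochondria lie in the epithelium and the young outer fibres and are removed when fibres mature to a clear, organelle-free core.

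Part of the mitochondrial genome has near-identical copies in nuclear DNA, and these bear on which reads can be assigned to the mitochondrial genes. The 2 pairs are given to show how complete the match is, with the first 90 bases of the mitochondrial transcript above those of the annotated pseudogene on chromosome 1 (GENCODE M21, GRCm38). mt-Nd3 lies at chrM:9459-9548 (plus strand) and its copy Gm28438 at chr1:24613030-24613119 (minus strand). mt-Co2 lies at chrM:7013-7102 (plus strand) and its copy Gm28661 at chr1:24615476-24615565 (minus strand). The capital marks the 1 base that differs between mt-Nd3 and its copy over 345 compared bases. mt-Co2 and its copy did not differ over 681 compared bases.
mt-Nd3: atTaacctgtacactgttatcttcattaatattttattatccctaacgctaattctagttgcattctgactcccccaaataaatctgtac
Gm28438: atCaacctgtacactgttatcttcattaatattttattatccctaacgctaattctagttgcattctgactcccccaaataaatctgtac
mt-Co2: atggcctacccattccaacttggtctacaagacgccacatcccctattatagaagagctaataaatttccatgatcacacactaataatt
Gm28661: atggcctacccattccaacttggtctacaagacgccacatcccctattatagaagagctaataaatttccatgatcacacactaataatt

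In KO lenses, 4 nuclear members fell, Ndufa1 of complex I and Cox5b, Cox6a1 and Cox8a of complex IV, and no mitochondrially encoded member was called. Of 35 nuclear members, 34 passed the filter on low values, and 4 of these (11.8%) fell, none rose and 30 did not pass the test. Over all genes tested, 4.39% were called lower and 6.91% higher. The median difference of the 34 was -0.47, with 31 below 0. Over all 11468 genes tested the median was 0.031, with 5449 below 0. At an unadjusted p under 0.05 there were 15 of the nuclear members, beside 3024 of the 11468 genes tested. Voom on the recovered reads called 4 nuclear members lower and none higher, beside 4.12% and 3.67% of all genes. Of the 13 mitochondrially encoded members, 12 passed the filter, and limma called 0 of them in either direction, 1 (mt-Nd6) had an unadjusted p under 0.05, and voom called 0. All 12 had a negative difference, with a median of -0.38. They include mt-Nd3, mt-Co2, mt-Co3, mt-Atp6 and mt-Atp8, whose values are not read as transcript levels for reasons given below. Both medians lay above 0 when reads were divided by the library total (0.37 nuclear and 0.42 mitochondrial, where that of all genes tested was 0.86). The falls reported are therefore relative to the size factors of the deposited values, though Ndufa1 was also called lower with the library total.

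**Figure D1:**
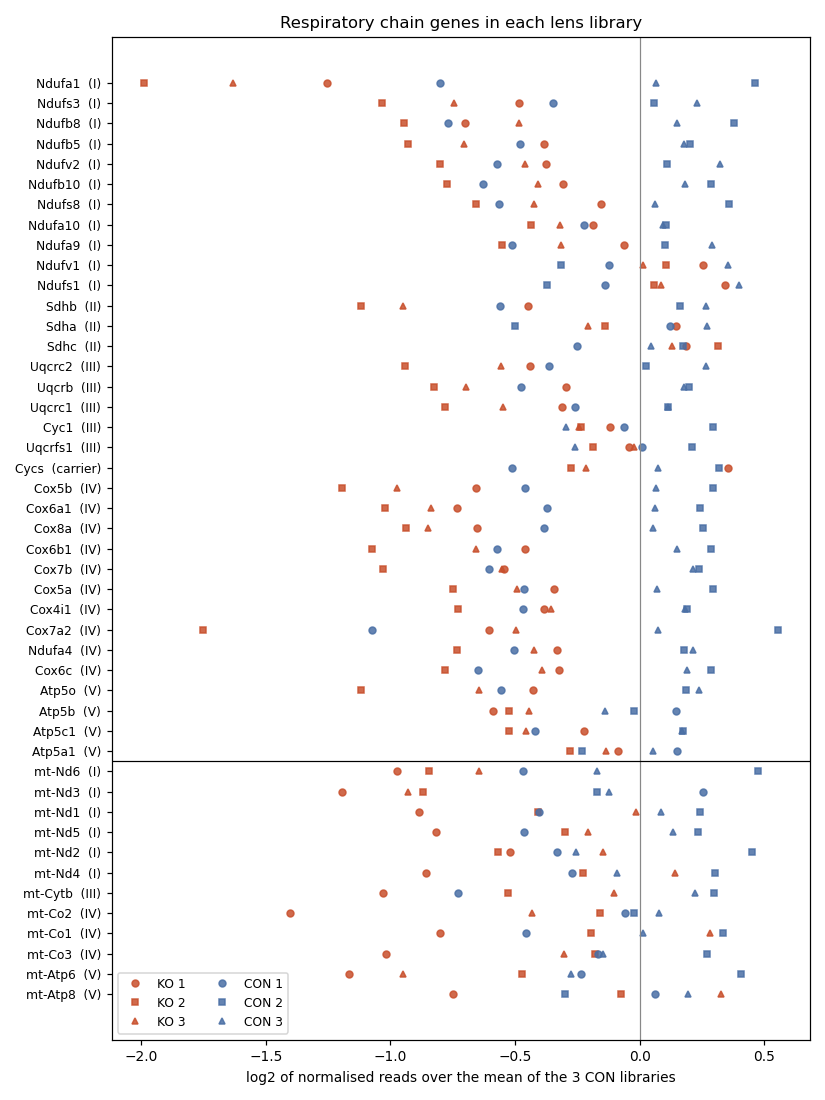
Normalised reads of the 46 tested members in each library, as log2 of the ratio to the mean of the 3 CON libraries (complex in brackets, nuclear genes above the line and mitochondrial genes below it). KO 2 (red square) is the lowest KO library for 29 of 34 nuclear genes and KO 1 (red circle) for 11 of 12 mitochondrial genes, and CON 1 (blue circle) is the lowest CON library for 27 of 34 nuclear genes.

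The groups overlapped for most members, and they did so along particular libraries. All KO libraries lay below all CON libraries for 8 of 34 nuclear (23.5%) and 5 of 12 mitochondrial members (41.7%), against 14.1% of all genes tested. Of those 5, 4 are genes with near-complete copies and few reads. None had all KO above all CON, a pattern of 16.9% of all genes. CON 1 was the lowest CON library for 27 of 34 nuclear members (79.4%) and 9 of 12 mitochondrial ones, against 35.3% of all genes tested. In KO, KO 2 was the lowest for 29 of 34 nuclear members (85.3%, against 31.4% of all genes) and KO 1 for 11 of 12 mitochondrial members (91.7%, against 38.6%). Without CON 1, 20 nuclear members and mt-Nd6 were called lower, with 7.48% of all genes called lower in that fit. Without CON 2, CON 3, KO 2 or KO 3 the number of nuclear members that fell was 1 (Ndufa1), beside 2.42%, 3.84%, 1.5% and 2.1% of all genes in those fits. Without KO 1 it was 2 (Ndufa1 and Cox5b), beside 2.76%. It was also 1 without the variance trend (3.56% of all genes), and 2 without a filter (1.87%) and with reads outside crystallins as library size (2.55%). CON 1 also had the lowest crystallin share of the CON libraries (59.5%, against 68.4% and 66.1%), and the part of this in the result was not tested.

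Complex I accounts for 11 of the nuclear members, and 1 of them fell. Ndufa1, a small membrane subunit encoded on the X chromosome that is needed for assembly of the membrane arm, had 11117, 6668 and 8554 normalised reads across KO 1 to 3 and 15208, 36525 and 27752 across CON 1 to 3. Every KO library lay below every CON library, and the mean was 3.02-fold lower in KO (8779.9 ± 2233 in KO and 26495 ± 10714 in CON, SD, n = 3 each; log2 difference -1.52, SE 0.31, adjusted p = 0.00926). Ndufa1 was called lower under each of the 17 alternatives, those that left out a library included, with adjusted p from 0.00184 to 0.0437. It was the only member of the 4 with that record. The Y-linked gene Ddx3y stood at 0, 1785 and 2119 normalised reads across KO 1 to 3 and 583, 205 and 1681 across CON 1 to 3, and the part of a difference in sex in this result was not tested. Without KO 1, the library with no Ddx3y read, the adjusted p of Ndufa1 was 0.0172. Ddx3y still differed among the remaining libraries, so that fit cannot separate sex from genotype. The part of sex was not tested for any other gene here, Cox7b, the other member on the X chromosome, included.

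The next largest difference among the nuclear subunits of the complex was that of Ndufs3, a core subunit of the hydrophilic arm, with 4437, 3039 and 3708 normalised reads across KO 1 to 3 and 4878, 6474 and 7291 across CON 1 to 3. The groups did not overlap, although KO 1 and CON 1 lay close together, and the gene was not called (log2 difference -0.71, SE 0.22, adjusted p = 0.0646). Reads of Ndufs3 are not safely separate, as 35.8% of the 50-base windows of its transcript also occur unchanged in other annotated genes, chiefly a processed pseudogene. Positive differences were measured for 2 subunits, each difference smaller than its SE. Ndufs1, the largest subunit, had 3128, 2566 and 2618 normalised reads across KO 1 to 3 and 2239, 1907 and 3248 across CON 1 to 3 (log2 difference 0.19, SE 0.23, adjusted p = 0.663). Ndufv1, which binds NADH and flavin mononucleotide, had 3551, 3210.2 and 3012 normalised reads across KO 1 to 3 and 2735, 2392 and 3814 across CON 1 to 3 (log2 difference 0.14, SE 0.22, adjusted p = 0.727). The KO and CON values of both overlapped. The other 7, Ndufa9, Ndufa10, Ndufb5, Ndufb8, Ndufb10, Ndufs8 and Ndufv2, had differences from -0.63 (Ndufb8) to -0.26 (Ndufa9), and for each of them 2 of 3 CON libraries lay above all KO libraries while CON 1 did not.

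**Figure D2:**
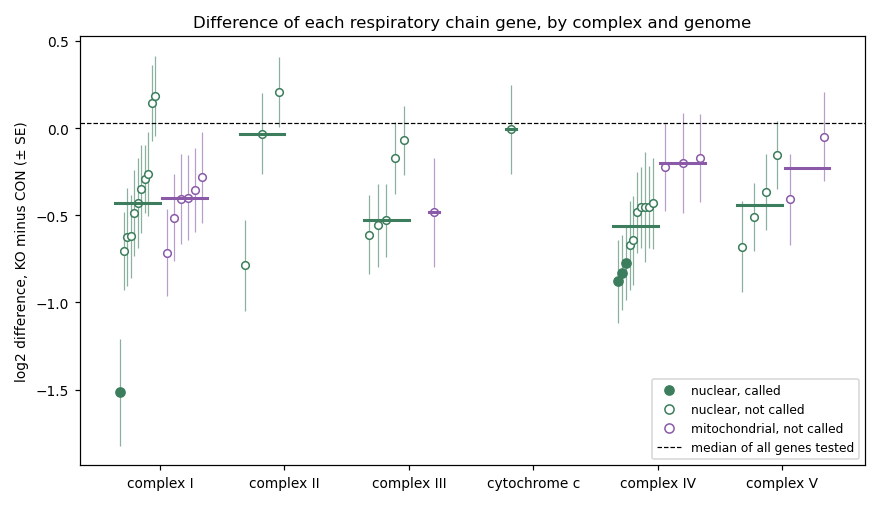
Log2 difference (KO minus CON, bars ± SE) of each tested member by complex, with nuclear genes in green, mitochondrial genes in purple, filled points for called genes and a thick line at each group's median. The called genes are Ndufa1 at -1.52 and 3 subunits of complex IV, and most points lie below the dashed median of all genes tested.

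No member of complexes II and III was called. Complex II is wholly nuclear and also works in the citric acid cycle. Its iron-sulphur subunit gene Sdhb had 16112, 10115 and 11370.0 normalised reads across KO 1 to 3 and 14900.0, 24573 and 26461 across CON 1 to 3 (log2 difference -0.79, SE 0.26, adjusted p = 0.0772), where KO 1 lay above CON 1. Sdha, the flavoprotein subunit, stood at 7781, 6382 and 6085 normalised reads across KO 1 to 3 and 7646, 4969 and 8484 across CON 1 to 3, with the groups interleaved (log2 difference -0.031, SE 0.23, adjusted p = 0.951). Sdhc, a membrane anchor, had 2859, 3130.3 and 2755 normalised reads across KO 1 to 3 and 2110.2, 2839 and 2594 across CON 1 to 3 (log2 difference 0.21, SE 0.20, adjusted p = 0.562), so the 3 tested subunits had differences of both signs. Sdhd, the other anchor, had 45.5, 7.21 and 19.6 normalised reads across KO 1 to 3 and 19.0, 22 and 35.4 across CON 1 to 3 and did not pass the filter. In complex III, the core proteins Uqcrc1 and Uqcrc2 had all KO libraries below all CON libraries without a call. Uqcrc2 had 9077, 6399 and 8374 normalised reads across KO 1 to 3 and 9563, 12519 and 14812 across CON 1 to 3 (log2 difference -0.61, SE 0.23, adjusted p = 0.107), and Uqcrc1 had 15809, 11437 and 13449 normalised reads across KO 1 to 3 and 16425, 21239.8 and 21253 across CON 1 to 3 (log2 difference -0.53, SE 0.21, adjusted p = 0.128). Of the catalytic subunits, cytochrome c1 (Cyc1) lay at -0.17, the Rieske iron-sulphur protein (Uqcrfs1) at -0.07 and the mitochondrially encoded cytochrome b (mt-Cytb) at -0.48. Uqcrb, which sits near the ubiquinone site, lay at -0.56, and 43.2% of the windows of its transcript occur elsewhere. Cycs, the gene of cytochrome c, had 3365, 2176 and 2265 normalised reads across KO 1 to 3 and 1844, 3279 and 2770.0 across CON 1 to 3 (log2 difference -0.0055, SE 0.26, adjusted p = 0.991). The 95% interval of its difference ran from -0.56 to 0.55. At least 1 window of 50 bases of its transcript occurs in each of 76 other annotated genes, and 28.5% of its windows occur elsewhere.

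Complex IV held 3 of the 4 called members, all of them small nuclear subunits that surround the mitochondrially encoded core. Cox6a1, the widely expressed form of subunit 6a, had 10409, 8525 and 9689.7 normalised reads across KO 1 to 3 and 13361, 20475 and 18068 across CON 1 to 3. All KO libraries were lower, with KO 1 nearest to CON 1 (9541 ± 951 in KO and 17301 ± 3619 in CON, SD, n = 3 each; log2 difference -0.83, SE 0.21, adjusted p = 0.0286). Cox5b, a zinc-binding subunit on the matrix side, had 4840.1, 3331 and 3881 normalised reads across KO 1 to 3 and 5544, 9341 and 7975 across CON 1 to 3 (log2 difference -0.88, SE 0.24, adjusted p = 0.0353), and 25.9% of its windows occur in another annotated gene (for Cox6a1 12.3%). Cox8a, a small subunit that spans the inner membrane, had 8248, 6767 and 7198 normalised reads across KO 1 to 3 and 9941, 15452 and 13462 across CON 1 to 3 (log2 difference -0.77, SE 0.21, adjusted p = 0.0389). Over the 17 alternatives the call was kept in 8 for Cox5b, 9 for Cox6a1 and 6 for Cox8a, and all 3 lost it without the variance trend and with the replicate block. Cox5b passed without CON 1 or KO 1 (adjusted p = 0.00839 and 0.0465) and Cox6a1 and Cox8a without CON 1 (adjusted p = 0.00645 and 0.0082). Without any of the other libraries their adjusted p ran from 0.0606 to 0.183. With the library total as divisor, the 3 genes had differences of -0.03, 0.024 and 0.078 and none was called.

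The other 7 nuclear members of complex IV, Cox4i1, Cox5a, Cox6b1, Cox6c, Cox7a2, Cox7b and Ndufa4, had differences from -0.67 (Cox6b1) to -0.43 (Cox6c). Ndufa4 was first counted to complex I and is now placed in complex IV. For each of the 7, CON 1 lay within or below the KO range while CON 2 and CON 3 lay above it. Cox7a2 stood apart in its level, with 152.04, 68.5 and 163.8 normalised reads across KO 1 to 3 and 109.8, 339.9 and 243 across CON 1 to 3, far below the levels of the other 6. The most abundant was Cox4i1, the common form of subunit 4, with 20966, 16517 and 21386 normalised reads across KO 1 to 3 and 19801, 31219 and 31031 across CON 1 to 3 (log2 difference -0.45, SE 0.23, adjusted p = 0.243).

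Subunit 6a has another gene, and the 2 went opposite ways with the deposited size factors, where with the library total Cox6a1 stood at 0.024, without a call, and Cox6a2 at 4.23. Cox6a2, known as the form of heart and skeletal muscle, had 2106, 2285 and 2978 normalised reads across KO 1 to 3 and 163.6, 349 and 257 across CON 1 to 3. It rose 9.58-fold (2456 ± 461 in KO and 257 ± 92.9 in CON, SD, n = 3 each; log2 difference 2.67, SE 0.25, adjusted p = 0.00018) and was called under each alternative, with adjusted p from 2.6e-05 to 0.00128. In KO, Cox6a2 thus had 2456 normalised reads beside 9541 of Cox6a1, and in CON 257 beside 17301. No window of 50 bases of the Cox6a2 transcript occurs in another annotated gene. Of the 10 listed isoforms of limited tissue range, 6 could be tested and Cox6a2 was the 1 that passed, upward, with none lower. Among all genes tested, 6.91% were called higher and 4.39% lower. Cox6b2, known from testis, had 786, 477 and 567 normalised reads across KO 1 to 3 and 259.7, 327 and 218 across CON 1 to 3, without overlap and without a call (adjusted p = 0.0551). The hypoxia-responsive isoforms Cox4i2 and Ndufa4l2 overlapped between the groups, with adjusted p = 0.606 and 0.706. Cox6a2 came from a list written with earlier results of these data known.

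**Figure D3:**
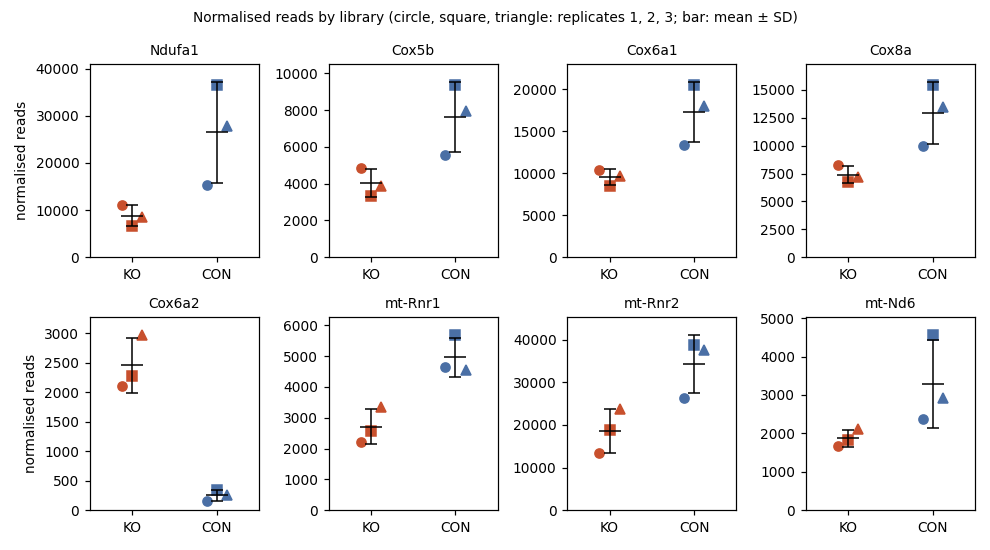
Normalised reads of the 4 called members, the isoform gene Cox6a2, the 2 mitochondrial ribosomal RNAs and mt-Nd6 in each library, KO left of CON, with mean ± SD (n = 3 each). The groups do not overlap in any panel, Cox6a2 is the gene that is higher in KO, and CON 1 (circle) is the CON library nearest to KO for Ndufa1, Cox5b, Cox6a1 and Cox8a.

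The promoters of the 4 called members are printed because nuclear respiratory chain genes are known for binding sites of the factors NRF1, GABP (an ETS factor) and YY1 near their start. Each run covers 250 bases before to 50 after the RefSeq start (GRCm38.p6), and capitals mark matches, on either strand, to the NRF1 motif (GCGC, then A and any base, then GCGC), the ETS motif CCGGAAG and the YY1 motif AAGATGGC. Cox6a1 (chr5:115348909-115349208, minus strand) held 2 NRF1 matches and 1 ETS match, Cox8a (chr19:7217567-7217866, minus strand) held 2 ETS matches, and Ndufa1 (chrX:37191189-37191488, minus strand) and Cox5b (chr1:36691237-36691536, plus strand) held none of the 3. The NRF1 letters occurred in 6 of the 27 nuclear members with a promoter entry (22.2%) and 5.19% of 27025 genes. For the ETS letters the shares were 25.9% and 9.93%, and for YY1 7.41% and 3.19%. A match is a description of the letters, not of binding.
Ndufa1: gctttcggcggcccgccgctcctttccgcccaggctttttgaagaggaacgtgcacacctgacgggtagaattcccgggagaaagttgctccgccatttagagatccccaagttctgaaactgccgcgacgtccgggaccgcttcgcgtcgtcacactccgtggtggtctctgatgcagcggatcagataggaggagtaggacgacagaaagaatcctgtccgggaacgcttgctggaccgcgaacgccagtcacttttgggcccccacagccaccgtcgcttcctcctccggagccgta
Cox5b: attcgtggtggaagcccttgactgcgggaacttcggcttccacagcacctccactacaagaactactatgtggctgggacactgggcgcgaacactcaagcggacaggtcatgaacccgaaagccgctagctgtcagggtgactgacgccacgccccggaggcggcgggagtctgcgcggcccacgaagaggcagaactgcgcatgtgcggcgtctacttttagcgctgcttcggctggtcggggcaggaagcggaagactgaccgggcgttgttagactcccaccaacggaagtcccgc
Cox6a1: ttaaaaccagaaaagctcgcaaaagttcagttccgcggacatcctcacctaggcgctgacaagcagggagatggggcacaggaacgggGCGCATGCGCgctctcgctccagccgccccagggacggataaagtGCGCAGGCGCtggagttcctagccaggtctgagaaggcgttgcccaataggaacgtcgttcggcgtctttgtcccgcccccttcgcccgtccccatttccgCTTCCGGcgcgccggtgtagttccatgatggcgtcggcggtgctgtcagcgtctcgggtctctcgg
Cox8a: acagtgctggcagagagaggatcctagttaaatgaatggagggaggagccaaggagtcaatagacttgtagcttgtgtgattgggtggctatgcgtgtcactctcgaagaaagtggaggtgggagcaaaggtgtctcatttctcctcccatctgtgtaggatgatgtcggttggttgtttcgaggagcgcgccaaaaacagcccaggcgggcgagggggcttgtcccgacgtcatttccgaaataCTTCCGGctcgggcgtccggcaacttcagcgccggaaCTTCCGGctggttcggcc

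The nuclear members of complex V, the ATP synthase, were not called. Atp5b encodes the catalytic beta subunit and had the most normalised reads of the nuclear members, with 30275, 31722 and 33534 normalised reads across KO 1 to 3 and 50424, 44859 and 41380.4 across CON 1 to 3. All KO libraries lay below all CON libraries and within a narrow range (log2 difference -0.51, SE 0.19, adjusted p = 0.117), and here CON 3, not CON 1, was the lowest CON library. Atp5o, the stalk subunit that confers sensitivity to oligomycin, had 15244, 9441 and 13103 normalised reads across KO 1 to 3 and 13926, 23348 and 24210.2 across CON 1 to 3 (log2 difference -0.68, SE 0.26, adjusted p = 0.121), with KO 1 above CON 1. Atp5c1, the gamma subunit of the rotating shaft, differed by -0.37. Atp5a1, the alpha subunit and partner of beta, differed by -0.16, with 16606, 14526 and 16071 normalised reads across KO 1 to 3 and 19583, 15018 and 18306 across CON 1 to 3. The 95% intervals of Atp5b (-0.94 to -0.086) and Atp5a1 (-0.58 to 0.27) overlapped, and the difference between the 2 was not tested.

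The 13 mitochondrial protein genes fell into a high and a low class by level. Per kilobase of transcript, mt-Cytb, the only complex III subunit of the mitochondrial genome, had 39505 ± 12363 in KO and 56035 ± 19314 in CON (normalised reads per kilobase, SD, n = 3 each), and mt-Nd1 had 16646 ± 4901 in KO and 21859 ± 4797 in CON. mt-Nd2, mt-Nd4, mt-Nd5, mt-Nd6 and mt-Co1 had means from 3379.9 to 8447 per kilobase in KO and from 4514 to 9514 in CON. By contrast mt-Co2, which encodes a core subunit of cytochrome oxidase and sits on the same long precursor RNA, had 65.9 ± 26.1 in KO and 98.1 ± 4.85 in CON. mt-Co3, mt-Atp6, mt-Atp8, mt-Nd3 and mt-Nd4l were as low, from 59.3 to 301 per kilobase in KO and 83.2 to 549 in CON.

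Of these 6 low genes, 5 are the members whose transcript is almost wholly repeated in other annotated genes. The share of 50-base windows found unchanged in another annotated gene was 98.0% for mt-Nd3, 98.8% for mt-Nd4l, 99.5% for mt-Atp6, 99.9% for mt-Co3 and 100% for mt-Co2, in each case mainly in the run of pseudogenes on chromosome 1 to which the copies printed above belong. It was 62.2% for mt-Nd4 and 51.1% for mt-Co1, at most 8.19% for mt-Nd2 and mt-Nd5, and 0 for mt-Nd1, mt-Nd6 and mt-Cytb. mt-Atp8 also had a share of 0, and no gene is annotated between the copies of mt-Co2 and mt-Atp6. The search covered annotated genes alone, so it cannot show whether mt-Atp8 has a copy there. How the deposited counting treated reads with several matches is not given in the sources used here, and the part of the copies in the low levels was not tested. The values of these 6 genes are therefore not read as transcript levels. Among the nuclear members, Sdhd and Cox7a2 were the lowest, with no window found in another annotated gene. Genes overlapping a member's own locus were left out of that search.

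**Figure D4:**
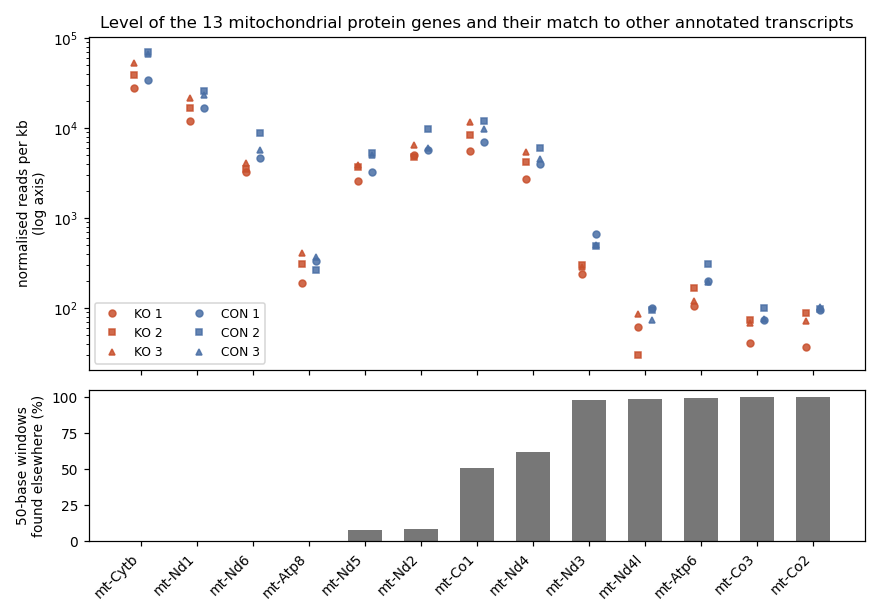
Upper panel, normalised reads per kilobase (log axis) of the 13 mitochondrial protein genes in each library, and lower panel, the share of 50-base windows of each transcript found unchanged in other annotated genes. The 5 genes with shares of 98.0% or more and mt-Atp8 lie below the other 7 genes in every library.

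Between the groups, the differences of the mitochondrial members ran from -0.72 (mt-Nd6) to -0.049 (mt-Atp8), and none was called. mt-Nd6, the 1 member encoded on the light strand, had 1677, 1831 and 2105 normalised reads across KO 1 to 3 and 2379, 4569.6 and 2919 across CON 1 to 3 (log2 difference -0.72, SE 0.25, adjusted p = 0.0889), without overlap. It passed only without CON 1 (adjusted p = 0.025, in a range of 0.025 to 0.63 over all alternatives). mt-Cytb had 31418, 44485 and 59678 normalised reads across KO 1 to 3 and 38703, 78882 and 74725 across CON 1 to 3 (log2 difference -0.48, SE 0.31, adjusted p = 0.362), with KO 2 and KO 3 above CON 1. The oxidase core gene mt-Co1 had 8448, 12835 and 17869 normalised reads across KO 1 to 3 and 10716, 18555 and 14828 across CON 1 to 3, where KO 2 and KO 3 lay above CON 1 and KO 3 also above CON 3 (log2 difference -0.20, SE 0.29, adjusted p = 0.714). The 95% interval of the difference of mt-Cytb ran from -1.17 to 0.20 and that of mt-Co1 from -0.83 to 0.43, and both intervals hold 0. The other complex I genes with many reads had overlapping groups, at -0.41 (mt-Nd1), -0.40 (mt-Nd5), -0.36 (mt-Nd2) and -0.28 (mt-Nd4). mt-Nd1 had 11320.3, 15773 and 20697 normalised reads across KO 1 to 3 and 15824, 24733 and 22199.8 across CON 1 to 3 (log2 difference -0.41, SE 0.26, adjusted p = 0.348), and CON 1 lay within the KO range. Without overlap but at few reads lay mt-Nd3, with 83.5, 105 and 100.4 normalised reads across KO 1 to 3 and 228, 169.9 and 175.5 across CON 1 to 3 (log2 difference -0.51, SE 0.25, adjusted p = 0.216), and likewise mt-Co2 (-0.22), mt-Co3 (-0.17) and mt-Atp6 (-0.41), which have such copies. mt-Atp8 had 39.2, 62.5 and 82.5 normalised reads across KO 1 to 3 and 68.6, 53.5 and 75.2 across CON 1 to 3, interleaved, and mt-Nd4l had 18.4, 9.02 and 25.4 normalised reads across KO 1 to 3 and 29.6, 28.3 and 22.1 across CON 1 to 3 and did not pass the filter.

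Both mitochondrial ribosomal RNAs, which are no members but come from the same genome, fell. mt-Rnr1 (12S) had 2227, 2563 and 3341 normalised reads across KO 1 to 3 and 4659, 5693 and 4544 across CON 1 to 3 (log2 difference -0.84, SE 0.21, adjusted p = 0.0269), and mt-Rnr2 (16S) had 13492, 18709 and 23818 normalised reads across KO 1 to 3 and 26364, 38801 and 37643 across CON 1 to 3 (log2 difference -0.89, SE 0.25, adjusted p = 0.0427). All KO libraries lay below all CON libraries for both, and at most 1.04% of the windows of either occur in other annotated genes. The call of mt-Rnr1 was lost when CON 2, KO 1 or KO 2 was left out (highest adjusted p 0.131) and that of mt-Rnr2 also without CON 3 (up to 0.154). With the library total as divisor, their differences were -0.031 and -0.039, without a call.

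Set side by side, the medians of complexes I, III, IV and V lay below 0 with the deposited size factors and above 0 with the library total, and none of these comparisons carries a test, since the members were chosen with results known. The median difference of the tested members was -0.41 in complex I (17 genes), -0.031 in complex II (3), -0.51 in complex III (6), -0.45 in complex IV (13) and -0.39 in complex V (6). Within complex IV the nuclear members had a median of -0.56 and the 3 mitochondrial ones -0.20, of which mt-Co2 and mt-Co3 are among the genes with copies. Both of these have few reads, where the deposited values compress a difference. Within complex I the medians were -0.43 and -0.40, and in complex V -0.44 and -0.23. The last value rests on mt-Atp6 and mt-Atp8 alone, both among the genes not read as transcript levels. The 8 mitochondrial members without near-complete copies among annotated genes had a median of -0.38. They include mt-Atp8, for which a copy that is not annotated would have been missed.

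As a share of all reads in genes, the 13 mitochondrial genes took 0.193%, 0.336% and 0.377% across KO 1 to 3 and 0.187%, 0.242% and 0.219% across CON 1 to 3. As a share of the reads outside crystallins, the values were 0.368%, 0.566% and 0.706% in KO, against 0.462%, 0.766% and 0.646% in CON, and the groups overlapped on both. The 35 nuclear genes took 0.852%, 0.835% and 0.832% of all reads in KO, above all 3 CON values (0.675%, 0.692% and 0.687%). Of the reads outside crystallins they took 1.62%, 1.40% and 1.56% in KO, below all CON values (1.67%, 2.19% and 2.03%). The direction of the nuclear sum thus turned with the denominator. Mitochondrial reads per nuclear read, which no scaling moves, were 0.226, 0.403 and 0.453 in KO, against 0.277, 0.350 and 0.319 in CON, with KO 1 below and KO 2 and KO 3 above all CON libraries. mt-Cytb gave the largest part of the mitochondrial sum, 353853 reads over all libraries, with mt-Nd1 next at 122952. The mitochondrial genes not read as transcript levels gave from 147 (mt-Nd4l) to 898 (mt-Nd3) reads each, so the sum holds little of them.

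A change of library size moves every gene by about the same amount, so the place of the members relative to all genes tested was compared over other settings. The nuclear median lay -0.50 from the median of all genes with the deposited values, -0.76 without CON 1, -0.36 without CON 2 and -0.37 without KO 2. The mitochondrial median lay -0.41 from it with the deposited values and -0.51, -0.26 and -0.39 under the same 3 omissions, and -0.23 without KO 1. Quantile normalisation brought both nearer, to -0.14 for nuclear and -0.23 for mitochondrial members. On the absolute scale, 32 of 34 nuclear and 11 of 12 mitochondrial members had positive differences with the library total, where 14 nuclear members were called higher and 1 (Ndufa1) lower, beside 28.9% and 0.741% of all genes. In bulk lenses, fewer cells of a type and less RNA per cell cannot be told apart.

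**Figure D5:**
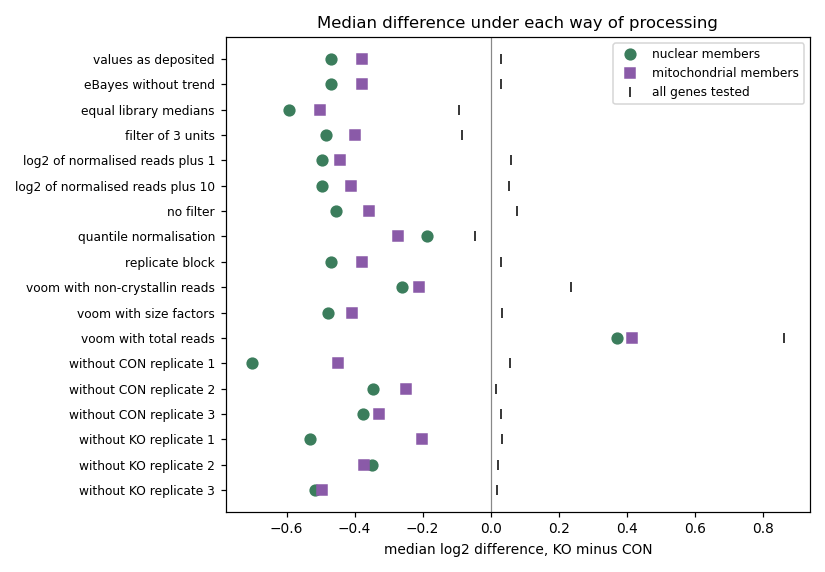
Median log2 difference (KO minus CON) of the nuclear members, the mitochondrial members and all genes tested, under the values as deposited and each alternative. Both member medians lie left of the median of all genes under each setting, and lie right of 0 when reads are divided by the library total.

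Other listed nuclear subunits, apart from the isoforms of limited tissue range given above, had differences below 0 in every tested gene with the deposited size factors. Their lists, too, were written with earlier results of these data known. Of 25 other complex I subunits, all were tested, 4 fell, none rose and 21 did not pass, with a median of -0.64 and all 25 differences below 0. Their share called lower was 16.0%, against 4.39% of all genes. The 4 were Ndufv3 (-1.16, SE 0.23), an accessory subunit of the NADH-oxidising module, and Ndufc1 (-1.19), Ndufa3 (-1.06) and Ndufs5 (-1.03), small accessory subunits. Ndufv3 had 5736, 3891 and 4851 normalised reads across KO 1 to 3 and 8220.1, 12925 and 11983 across CON 1 to 3 (adjusted p = 0.00881). Of 17 tested genes of complexes III, IV and V, with the ATP synthase inhibitor Atpif1 counted among them, 1 fell, none rose and 16 did not pass (median -0.56, all 17 below 0), a share of 5.88% that lies near that of all genes. It was Atp5k, the e subunit of the ATP synthase, with 2512, 1776 and 2237 normalised reads across KO 1 to 3 and 3536, 7027 and 4528 across CON 1 to 3 (log2 difference -1.10, SE 0.26, adjusted p = 0.0185). The calls of Ndufc1 and Ndufs5 were lost when CON 2, KO 2 or KO 3 was left out (highest adjusted p 0.0965), that of Ndufa3 without CON 2, CON 3, KO 2 or KO 3 (up to 0.13), that of Atp5k without CON 2, KO 2 or KO 3 (up to 0.101) and that of Ndufv3 without KO 2 (0.0593). With the library total as divisor, none of the 5 was called, at differences from -0.33 to -0.20.

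Genes that build or feed the chain had medians nearer to 0. Of 42 tested assembly factors, 1 fell (2.38%, beside 4.39% of all genes called lower), none rose and 41 did not pass (median -0.17). It was Ndufaf6, a complex I assembly factor, with 166, 153 and 85.1 normalised reads across KO 1 to 3 and 480.3, 532 and 255 across CON 1 to 3 (log2 difference -1.02, SE 0.29, adjusted p = 0.0425), and its call was lost without any 1 library other than CON 3 (adjusted p up to 0.184). Of 79 tested proteins of the mitochondrial ribosome, which translates the 13 mitochondrial messages, 4 fell, none rose and 75 did not pass (median -0.32, 70 below 0). The 4 are 5.06% of those tested, near the 4.39% of all genes called lower. They were Mrps26 (-0.89), Mrpl23 (-1.02), Mrpl52 (-0.96) and Mrpl54 (-0.89). Without KO 2 or KO 3 none of the 4 was called (adjusted p from 0.0512 to 0.231), and without CON 2 none either (up to 0.157). Of 26 tested genes of mitochondrial DNA upkeep, transcription and RNA processing, limma called 0, with 2 at an unadjusted p under 0.05, and voom called 0 (median 0.068). Tfam, which packages and transcribes mitochondrial DNA, had 763, 849 and 581 normalised reads across KO 1 to 3 and 1122, 1129.8 and 637 across CON 1 to 3 (log2 difference -0.31, SE 0.26, adjusted p = 0.495).

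In the tricarboxylic acid cycle and pyruvate dehydrogenase, 1 of 18 tested genes rose, none fell and 17 did not pass (median -0.048). Beside this, 6.91% of all genes tested were called higher and 4.39% lower. Pdha1, the E1 alpha subunit of pyruvate dehydrogenase, had 2589, 2889.8 and 2957 normalised reads across KO 1 to 3 and 1705, 1120.4 and 1944 across CON 1 to 3 (log2 difference 0.79, SE 0.23, adjusted p = 0.0479). Its adjusted p was 0.0658 with voom and ran from 0.00662 to 0.189 over all alternatives. Of 7 tested regulators of mitochondrial biogenesis limma called 0, with 1 at an unadjusted p under 0.05, and voom called 0. That gene was the coactivator Ppargc1a, with 271, 364 and 171 normalised reads across KO 1 to 3 and 118, 31.5 and 145 across CON 1 to 3, all KO libraries above all CON libraries (log2 difference 0.84, SE 0.31, adjusted p = 0.108).

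Markers of other cells and of lens fibres differed between the same libraries. Over all genes tested, limma called 6.91% higher and 4.39% lower, and voom 3.67% and 4.12%. Single calls in the short lists are not read as a change of a cell type. Of 18 macrophage markers, 13 of 17 tested rose by limma and voom called 5 higher, and their summed level ran from 8404 to 28020.4 normalised reads in KO and from 2348 to 4456 in CON, with KO 1 highest. Of 9 lens fibre markers 8 fell, by limma as by voom, and the sum ran from 310349 to 432524 in KO and from 815957 to 1089621 in CON. Lens epithelium markers summed to 26233 to 36101 in KO and 16783 to 33560.1 in CON, with 2 of 6 tested higher and 2 lower. Pigment cell markers summed to 11206 to 17857 in KO and 8110.1 to 10160.3 in CON, with 1 of 5 tested higher by limma and 0 by voom, and Rpe65, a marker of the retinal pigment epithelium, at 0 in every library. Retinal neuron markers, with 1 of 6 higher by limma and 0 by voom, summed to 1185 to 1750.0 in KO and 1230.1 to 1359.5 in CON. Endothelial markers, with 0 of 7 called by limma, summed to 974 to 3139 in KO and 2042 to 2176 in CON, with 1 at an unadjusted p under 0.05 and 0 called by voom. Red cell markers, with 1 of 4 lower, summed to 2254 to 3631 in KO and 4414 to 6826 in CON. Mesenchyme markers, with 1 of 2 tested lower, summed to 419.6 to 451 in KO and 748 to 1366 in CON. The called gene, Pdgfra, gave much of that sum (mean 189 in KO and 758 in CON). Col1a1, at few reads and not tested, went the other way, with all KO libraries above all CON libraries, so these markers did not fall as a class. The lens identity of the samples shows in the crystallin share given above. The part of these cell types in the respiratory chain differences was not tested.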

How the data were processed

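Lens RNA of 3 Gclc KO and 3 Gclc CON libraries was analysed. Per the submitters' processing notes, Trimmomatic, HISAT2 2.1.0, mm9, featureCounts 1.6.4 and DESeq2 (given as 2.11.0.6) were used, and the authors deposited variance-stabilised log2 values. Genes without reads carry the value 6.504. Here the transformation was inverted in closed form, and all values came within 0.1 of a whole read (largest distance 0.0173). The size factors, from 0.318 (CON 2) to 1.89 (KO 3), were the median-of-ratios factors of these reads. Even counts were in excess, so both mates of some pairs may have been counted.

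KO was compared with CON in limma 3.58.1 (R 4.3.3, eBayes with trend, no covariate) on the deposited values of genes with a mean at least 1 above the lowest, and the fit was tested on simulated data. Identifiers were matched to RefSeq symbols (25275 of 27179), and 2 of 322 list genes had no match. Transcript lengths (principal transcript), copies and windows came from GENCODE M21 (GRCm38), promoters from RefSeq (GRCm38.p6), matched for 27 of 35 nuclear members, and no coordinate was set against mm9. Members are given with every library's values if called or if among the 2 smallest p in each direction of a complex and genome. Of other lists, called genes are named where 5 or fewer were called. Tfam, Cox6b2, Cox4i2, Ndufa4l2, Ppargc1a, Col1a1 and Ddx3y were named after their values were seen. Members and lists were chosen with earlier results of these data known. The alternatives were other filters, scalings, pseudocounts (1 and 10), voom with 3 library sizes, no trend, the replicate block and each library left out.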

Additional observations from a re-analysis of the deposited data

How the results depend on the processing

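Ndufa1 kept its direction and call under all 17 alternatives. Counts of called genes moved with the processing. The number higher was 340 with a filter of 3 units, 421 with voom and 3314 when the library total was the divisor, and the number lower was 309 with the replicate block, 292 with reads outside crystallins as library size and 85 with the library total. With 1 library left out the numbers ran from 328 to 1106 higher and 170 to 857 lower, in fits with fewer libraries. The number of nuclear members that fell, 4 as deposited, was 1 without the variance trend, 2 without a filter, 1 with the replicate block, 2 with reads outside crystallins, 1 with the library total, where 14 were higher, and 1 to 20 with 1 library left out. For mitochondrial members lower the range was 0 to 1. Equal replicate numbers share no stated source. Residuals of equal numbers correlated at -0.364, -0.128 and -0.140, and no library correlated best with its own number, so the pairing was not used. The cause of these changes was not tested.

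With the library total the median differences were 0.37 (nuclear), 0.42 (mitochondrial), 0.45 (complex I), 0.75 (II), 0.35 (III), 0.22 (IV) and 0.40 (V). Quantile normalisation gave 0.25 for complex II, -0.22 for III and -0.19 for V. Complex V stood at -0.51 with equal library medians, -0.23 with reads outside crystallins and -0.45 to -0.28 with 1 library left out. The mitochondrial shares of reads outside crystallins, printed with the shares of all reads, were 0.368, 0.566 and 0.706% in KO and 0.462, 0.766 and 0.646% in CON.

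Single members turned in sign, most of them with the library total. The differences were then, in complex I, Ndufs3 0.12, Ndufb5 0.23, Ndufb8 0.26, Ndufv2 0.36, Ndufb10 0.44, Ndufs8 0.53, Ndufa10 0.54 and Ndufa9 0.58. In complexes II and III and for cytochrome c they were Sdhb 0.068, Uqcrc2 0.23, Uqcrb 0.29, Uqcrc1 0.32, Cyc1 0.69, Sdha 0.75, Uqcrfs1 0.79 and Cycs 0.88. In complexes IV and V they were Cox6a1 0.024, Cox8a 0.078, Atp5o 0.18, Cox6b1 0.19, Cox7a2 0.21, Cox7b 0.22, Atp5b 0.32, Cox5a 0.38, Ndufa4 0.40, Cox4i1 0.41, Cox6c 0.44, Atp5c1 0.48 and Atp5a1 0.66. For mitochondrial genes they were mt-Atp6 0.049, mt-Co2 0.079, mt-Nd6 0.13, mt-Co3 0.34, mt-Cytb 0.39, mt-Nd5 0.45, mt-Nd1 0.45, mt-Nd2 0.53, mt-Nd4 0.57, mt-Atp8 0.57 and mt-Co1 0.67. With reads outside crystallins the turned values were Atp5a1 0.034, mt-Co1 0.037, Cyc1 0.058, Sdha 0.13, Uqcrfs1 0.15 and Cycs 0.26, with quantile normalisation Cyc1 0.033, Cycs 0.10, mt-Co1 0.10, Uqcrfs1 0.16, Atp5a1 0.19 and Sdha 0.25, and with voom Cycs 0.048. With 1 library left out, members that turned in sign ranged from -0.26 to 0.12 (Sdha), -0.23 to 0.16 (Cycs), -0.19 to 0.039 (Uqcrfs1), -0.45 to 0.078 (mt-Co1) and -0.14 to 0.056 (mt-Atp8). Depth limits mt-Nd4l and Sdhd, which were not tested.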
